A study of Mus musculus with 6 samples.

Results

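The genes described here encode the actin cables of a fibroblast and the machinery that pulls on them. They are 33 of the 18193 genes on the array: 14 whose products are typical of smooth muscle, 17 that serve the actin cytoskeleton of most cells, the muscle filamin gene Flnc and the transcription factor gene Srf. Each was read through probe sets, groups of short probes against 1 transcript, and only through those that the platform annotation pairs with that gene alone. Where a gene had several, the probe set with the highest mean on the log2 scale stood for it. All 33 genes were on the array, and all 33 lay above the limit for testing, an intensity of 33.5, as did 12622 genes in all.

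The cells were mouse embryonic fibroblasts of the strain B6CBAF1/J in the course of reprogramming toward pluripotency. They received SOX2 and KLF4 with OCT4 in the version labelled WT (the combination O(WT)SK) or in the version labelled 5R (O(5R)SK), whose nature the labels do not give. The culture medium, the same for both, was that of embryonic stem cells and held serum and the cytokine LIF. RNA came from days 3, 5 and 7. Every combination had 1 array per day, 6 in all, with no replicate, and cells without delivered factors were not analysed here.

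A stress fibre is a bundle of actin filaments and non-muscle or smooth muscle myosin that ends in focal adhesions, the sites where a cell holds on to its substrate. Phosphorylation of the myosin light chain by myosin light chain kinase makes the bundle contract. Fibroblasts on a culture dish build many such bundles and can carry smooth muscle proteins in them, as myofibroblasts do. SRF, bound to a short DNA motif called the CArG box, drives many of these genes together with the cofactors MRTF-A and MRTF-B, which enter the nucleus when free actin monomers run short.

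From day 3 to day 7, 15 of the 33 genes fell and 0 rose. These calls are from limma, fitted on all genes with factor combination and day as terms, at an adjusted p under 0.05. Over all genes tested 3.68% were called lower and 6.52% higher. The fitted difference was negative for each of the 33, against 46.6% of all genes. Both day 7 arrays lay below both day 3 arrays for 31 members, against 26.2% of genes, and 26 members were lower at each step in both combinations, against 12.9%. The median difference on the scale log2(intensity + 16) was -0.54 over the members and 0.03 over all genes. It was -0.07 over the brightest 10% of the genes, of which 65 of 1263 were called lower and 39 higher.

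Of the smooth muscle genes 10 of 14 fell, with a median of -0.78. Of the broadly expressed cytoskeleton genes 4 of 17 fell, with a median of -0.44. The difference between these groups of genes was not tested, and the split depended on the setting. A pseudocount of 64 gave 10 smooth muscle and 9 broad genes, against 6.15% of all genes called lower. A stricter filter on low values, at the 60th percentile, gave 11 of each, against 9.67%. A trended, robust variance prior gave 12 and 13, against 10.1%. Within O(WT)SK alone the medians were -0.67 and -0.35, and within O(5R)SK alone -0.83 and -0.57. At least 2-fold lower values on day 7 were found for 6 members with O(WT)SK, against 1.89% of genes, and for 5 with O(5R)SK, against 1.59%, each from 1 array a side. Dropping any 1 of the 4 arrays of days 3 and 7 left 0 genes called by limma, while 17 to 24 members had an unadjusted p under 0.05, as did 20.7% to 26% of all genes. With no filter on low values limma called 0 of 18193 genes, while 25 members had an unadjusted p under 0.05 (20.1% of all genes) and the lowest adjusted p among them was 0.0618. Nothing in the labels says whether the arrays came from separate cultures. With 1 array per combination and day, these p-values rest on how far the courses of the combinations depart from parallel. That departure mixes real differences between the courses with spread between arrays, which may be technical. In such bulk RNA, fewer cells of a type and less RNA per cell cannot be told apart.

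**Figure D1:**
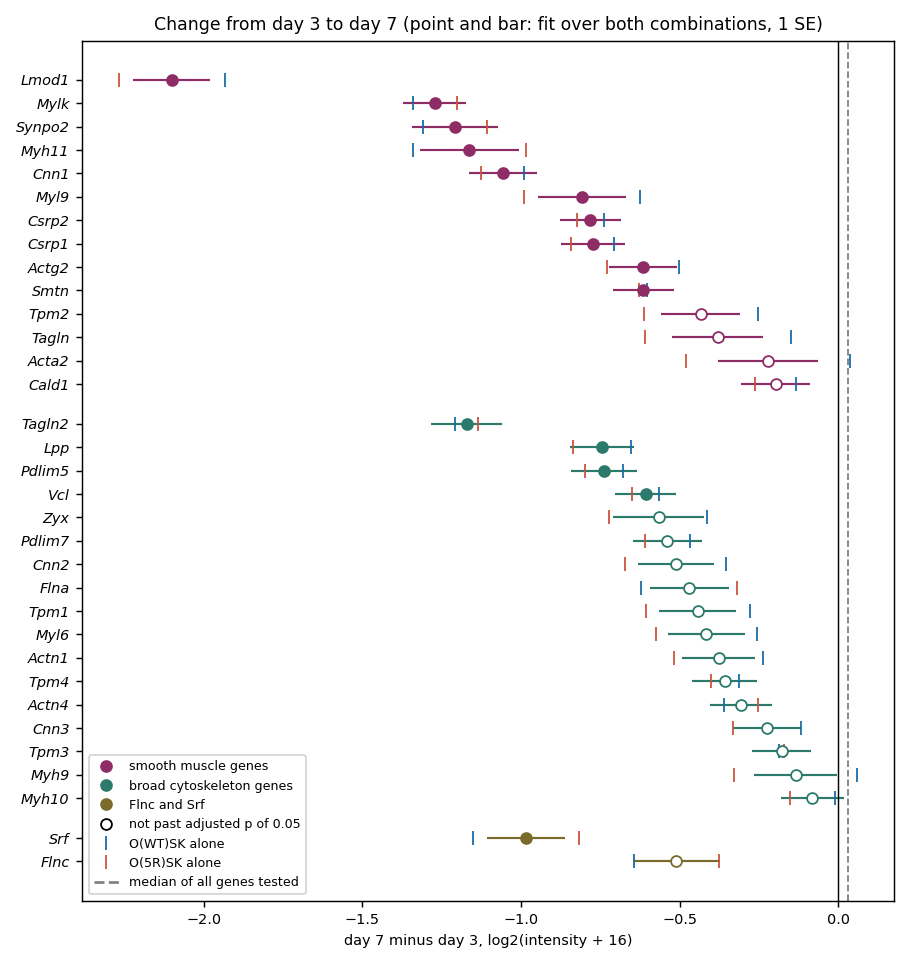
Change of each of the 33 genes from day 3 to day 7 in log2(intensity + 16), by group. Points and bars give limma's estimate over both combinations and 1 SE, ticks the change within each combination, and filled points the genes past an adjusted p of 0.05; Lmod1 lies lowest at -2.10 and each estimate lies left of 0.

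Srf itself was among the genes that fell. The O(WT)SK arrays of days 3, 5 and 7 gave intensities of 1435, 907 and 637, and the O(5R)SK arrays gave 1262, 882 and 709. Each day lay below the one before it in both combinations, and the day 3 and day 7 values did not overlap. The fitted difference was -0.98 (1.98-fold lower, SE 0.122, adjusted p = 0.0205 in limma). A dimmer Srf probe set read 504, 393 and 247 with O(WT)SK, against 450, 401 and 274 with O(5R)SK, a difference of -0.84 (SE 0.126).

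The promoters of several members hold the CArG box, and the stretches below are shown because Srf and these genes are read side by side here. RefSeq's table (GRCm38.p6) gives a window around the start for 29 of the 33 genes, and none was used for Actg2, Tagln, Myh11 or Csrp2. Within the 250 bases before the start, a full CArG box (CC and GG around a run of 6 letters, each A or T) was found for 5 of the 29 genes, or 17.2%, against 1.62% of 27025 genes with a window. These were Srf, Vcl and Myl9, which fell from day 3 to day 7, and Cnn2 and Myl6, which did not pass the threshold. By group, a full box was found for 1 of the 10 smooth muscle genes with a window (Myl9) and for 3 of the 17 broad genes. The members without a window are all smooth muscle genes, so the groups were not covered alike. Boxes outside the 250 bases were not searched for, and the difference between the groups was not tested. The box reads the same on both strands, so each hit was counted once. A match is a description of the letters and does not show that SRF binds there. Capitals mark the box, and each sequence runs 5′ to 3′ on the strand of its gene.
Srf, chr17:46556195-46556264, minus strand, with a pair of boxes that begin 82 and 62 bases before the start: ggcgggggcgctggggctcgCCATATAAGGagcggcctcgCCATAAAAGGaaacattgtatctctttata
Vcl, chr14:20929151-20929200, plus strand: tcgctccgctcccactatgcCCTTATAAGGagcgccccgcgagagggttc
Myl9, chr2:156775283-156775332, plus strand: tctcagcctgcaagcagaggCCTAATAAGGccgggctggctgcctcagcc
Cnn2, chr10:79988524-79988573, plus strand: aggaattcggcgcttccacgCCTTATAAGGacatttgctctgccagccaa

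A box with 1 departure, a C or G among the central letters, was found for 4 of the 29 genes (13.8%), Acta2, Myl9, Tpm3 and Flnc, against 8.33% of all genes with a window. Acta2, a smooth muscle actin gene, is shown because it held no full box. Its boxes with 1 departure began 84 and 34 bases before the start, and only the former is shown.
Acta2, chr19:34255428-34255477, minus strand, with the box 84 bases before the start: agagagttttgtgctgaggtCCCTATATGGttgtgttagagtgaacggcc
The motif GGAATG or its reverse complement CATTCC, bound by TEAD factors, the DNA-binding partners of YAP, was searched on both strands and found for 13 of the 29 genes (44.8%), against 14.4% of all genes. Among them were Lmod1 and Tagln2, the smooth muscle and the broad member with the greatest fall. Mylk, Smtn, Vcl and Lpp also held the motif and fell. Acta2, Cald1, Tpm1, Flna, Myh10, Actn4 and Flnc held it too and did not pass the threshold. Lmod1 and Tagln2 are shown because of their fall, with the motif in capitals. In Tagln2 the motif began 118 and again 80 bases before the start, and only the former is shown.
Lmod1, chr1:135324663-135324708, plus strand: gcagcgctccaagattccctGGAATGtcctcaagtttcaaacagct
Tagln2, chr1:172500108-172500153, plus strand: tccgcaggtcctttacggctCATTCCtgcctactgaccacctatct

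Among the smooth muscle genes the greatest fall was that of Lmod1, which encodes leiomodin, a protein that starts new actin filaments in smooth muscle. In the order of days, it read 1378, 630 and 349 with O(WT)SK, against 1235, 512 and 244 with O(5R)SK. Both courses dropped steeply at each step. The difference was -2.10, or 4.29-fold lower (SE 0.122, adjusted p = 0.00765 in limma).

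The motor and its switch followed. Mylk, the myosin light chain kinase gene, read 3217, 1796 and 1259 with O(WT)SK, against 2940, 1692 and 1269 with O(5R)SK. The combinations ran close together, and most of the log2 fall lay before day 5. Its difference was -1.27 (2.42-fold lower, SE 0.099, adjusted p = 0.0111 in limma). Myh11, the smooth muscle myosin heavy chain gene, read 1107, 756 and 427 against 933, 921 and 464. With O(5R)SK days 3 and 5 were nearly level and the drop came after day 5, while with O(WT)SK it ran over both steps. The fitted difference was -1.16 (SE 0.156, adjusted p = 0.0234 in limma). With all of its probe sets averaged it was -0.60 and did not pass (SE 0.175, adjusted p = 0.117 in limma). Myl9, a regulatory light chain gene of smooth muscle myosin, read 26590, 21648 and 17224 with O(WT)SK, against 25429, 21394 and 12788 with O(5R)SK. It fell by 0.81 on the log2 scale (SE 0.14, adjusted p = 0.0388 in limma), with the lowest value on the O(5R)SK day 7 array.

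Genes for proteins that sit along or cross-link the filaments fell as well. Cnn1, whose product calponin binds actin and restrains the myosin motor, read 9921, 8093 and 4980 with O(WT)SK, against 9280, 8083 and 4246 with O(5R)SK. Most of its drop lay after day 5 in both combinations, and the difference was -1.06 (2.08-fold lower, SE 0.107, adjusted p = 0.0147 in limma). Synpo2, which encodes an actin-bundling protein of muscle, read 430, 234 and 164 against 436, 201 and 193. Here the drop lay mostly before day 5, and the difference was -1.21 (2.31-fold lower, SE 0.135, adjusted p = 0.0176 in limma). The paired LIM protein genes Csrp1 and Csrp2, whose products bind alpha-actinin and zyxin, took similar courses. Csrp1 read 16542, 12850 and 10126 with O(WT)SK, against 15640, 12208 and 8720 with O(5R)SK, a difference of -0.77 (SE 0.1). Csrp2 read 4054, 3354 and 2424 against 4261, 3302 and 2398, a difference of -0.78 (SE 0.096). Smtn, the smoothelin gene of contractile smooth muscle, read 390, 352 and 252 against 427, 360 and 270, or 1.53-fold lower (SE 0.096). In each of these genes both day 7 arrays lay below both day 3 arrays.

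The actin genes and their partners at the top of the intensity range gave smaller differences. Actg2, the enteric smooth muscle actin gene, fell 1.53-fold: it read 16524, 14476 and 11657 with O(WT)SK, against 16884, 13407 and 10171 with O(5R)SK (SE 0.107, adjusted p = 0.039 in limma). Acta2, the actin gene that marks vascular smooth muscle and myofibroblasts, read 37572, 37268 and 38533 with O(WT)SK, against 38225, 34956 and 27402 with O(5R)SK. Its O(WT)SK course was level, the O(5R)SK day 7 value stood alone below the others, and the fitted difference of -0.22 did not pass (SE 0.157, adjusted p = 0.398 in limma). Tagln, which encodes the actin-binding protein SM22 alpha, read 26949, 27019 and 24265 against 27584, 24736 and 18069, a difference of -0.38 (adjusted p = 0.161 in limma). Tpm2, the beta-tropomyosin gene, read 24713, 24859 and 20708 against 23765, 21337 and 15526, a difference of -0.43 (adjusted p = 0.102 in limma). Cald1, which encodes caldesmon, a filament-bound brake on myosin, read 32615, 31518 and 29726 against 31240, 25700 and 26043, a difference of -0.20 (adjusted p = 0.286 in limma). For Tagln, Tpm2 and Cald1 the day 7 values lay below those of day 3 in both combinations without passing the threshold.

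**Figure D2:**
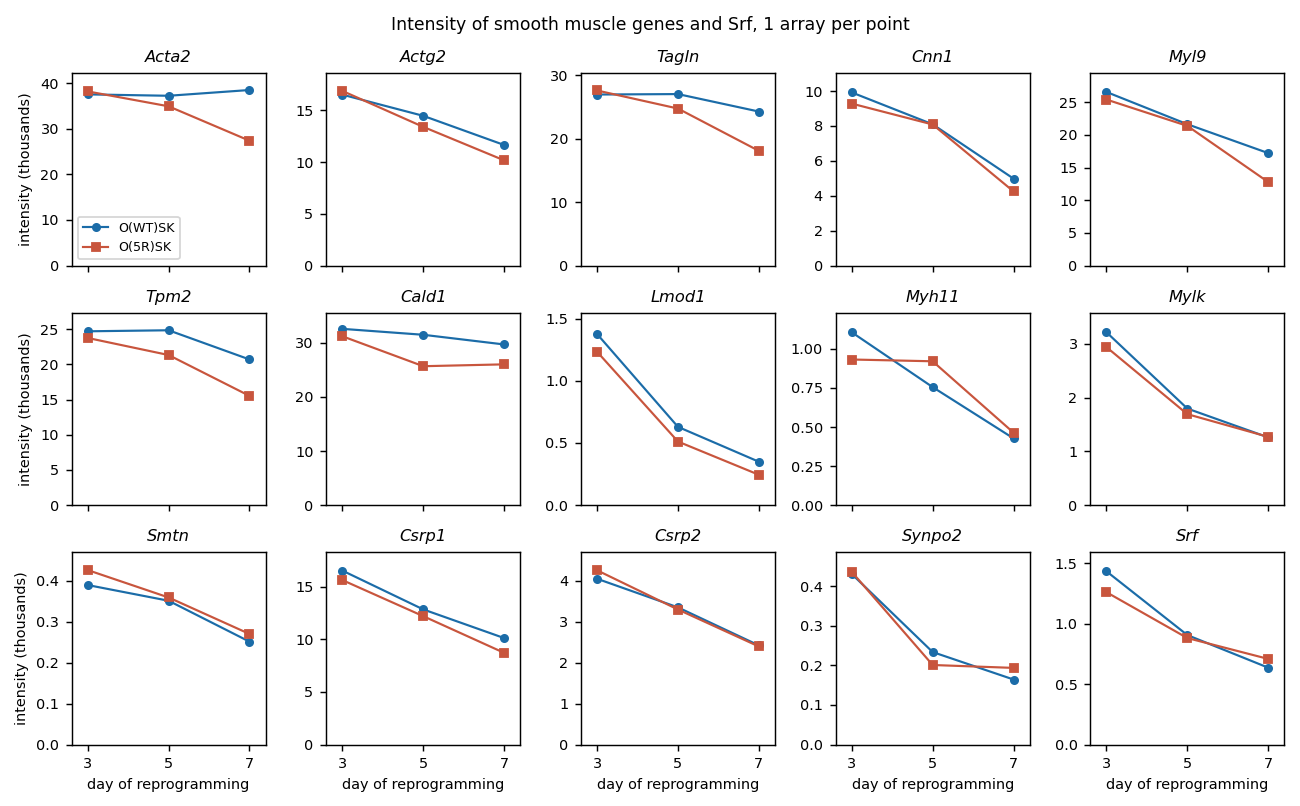
Deposited intensity, divided by 1000, of the 14 smooth muscle genes and Srf against the day of reprogramming, with 1 array per point and both combinations marked. Lmod1, Mylk, Synpo2 and Srf read much lower on day 5 than on day 3, Cnn1 was lowest on day 7 after a smaller step, and Acta2 stayed level with O(WT)SK.

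The broadly expressed members that fell were Tagln2, Vcl, Pdlim5 and Lpp. Tagln2, the transgelin gene of non-muscle cells, read 18516, 12704 and 8009 with O(WT)SK, against 18563, 11142 and 8436 with O(5R)SK. The combinations lay close together on each day, and the difference was -1.17 (2.25-fold lower, SE 0.113, adjusted p = 0.0141 in limma). Vcl, which encodes vinculin, the link between focal adhesions and actin, fell by 0.61 on the log2 scale (adjusted p = 0.0321 in limma). Pdlim5 and Lpp, which encode LIM proteins of stress fibres and focal adhesions, fell by 0.74 and 0.75 (adjusted p = 0.0265 and 0.0249 in limma). The other 13 had differences from -0.57 for Zyx, which encodes the adhesion protein zyxin, to -0.08 for Myh10, with adjusted p-values from 0.051 for Pdlim7 to 0.624.

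Related genes of the same family gave unequal differences. In the transgelin family it was the broad member Tagln2 that passed the threshold, while Tagln did not. In the calponin family Cnn1 fell, whereas Cnn2 read 19078, 16257 and 14926 with O(WT)SK, against 18890, 14990 and 11846 with O(5R)SK (difference -0.51, SE 0.12, adjusted p = 0.0682 in limma). Cnn3 read 24499, 23440 and 22580 against 25512, 22154 and 20247 (difference -0.23, SE 0.106, adjusted p = 0.232 in limma). In the myosin heavy chain family Myh11 fell, while the non-muscle genes did not pass. Myh9 read 21336, 23361 and 22249 with O(WT)SK, against 20930, 20875 and 16674 with O(5R)SK, so that only its O(5R)SK day 7 value stood low (difference -0.13, SE 0.131). Myh10 read 8099, 8065 and 8043 against 8680, 7891 and 7804 (difference -0.08, SE 0.1). The differences between family members were not tested. Flnc, the filamin gene of muscle, read 1667, 1423 and 1061 with O(WT)SK, against 1401, 1068 and 1075 with O(5R)SK. It lay lower on day 7 than on day 3 in both combinations and did not pass (difference -0.51, SE 0.137, adjusted p = 0.0895 in limma).

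The members were also divided by the brightness of the probe set used. Of the 7 smooth muscle genes with a mean intensity under 10000, 7 fell, with a median of -1.16. Of the 7 brighter ones 3 fell, with a median of -0.43. Among the broad genes the 6 dimmer ones had a median of -0.51 and 1 fell, and the 11 brighter ones a median of -0.38 and 3 fell. These counts are from the fit per gene, in which 3.68% of all genes and 65 of the 1263 genes in the brightest 10% were called lower. In a separate fit per probe set, described below, the median difference over all probe sets with a mean intensity over 10000 was -0.11. Bright probe sets as a whole were thus not level. Of these, 1.09% were called lower in that fit, as were 3 of the 22 member probe sets of that brightness. What part brightness had in the differences between members was not tested.

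Other probe sets of the same genes were read in a fit of their own over 23234 probe sets, an alternative added after the values were seen. The members have 89 probe sets, of which 86 were tested. The difference was negative for 83 of them, and 29 were called lower and 0 higher, against 1.59% of all probe sets called lower. At least 1 probe set was called lower for 16 members, 9 of them smooth muscle and 6 broad genes. Actg2, Myl9 and Smtn, each read by a single probe set, did not pass in this fit (adjusted p = 0.064, 0.0601 and 0.055 in limma). Of the 20 members with several tested probe sets, 17 had a negative difference on every one.

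Acta2 shows the widest spread between its probe sets. Beside the bright one (difference -0.22), the next in brightness read 1390, 1146 and 755 with O(WT)SK, against 1334, 1051 and 735 with O(5R)SK. The dimmest read 276, 121 and 67.4 against 279, 141 and 64.8. Both dimmer probe sets dropped at each step in both combinations, unlike the bright one. Their differences were -0.86 (adjusted p = 0.0337 in limma) and -1.84 (3.58-fold lower, adjusted p = 0.0178 in limma). Tpm1, a tropomyosin gene of most cells, had a bright probe set that did not pass (-0.44) and a dimmer one that read 1041, 505 and 297 against 863, 407 and 273. The latter was 3.2-fold lower (adjusted p = 0.0185 in limma). A dimmer probe set also passed for Tpm2 (-0.90, adjusted p = 0.035 in limma) and for Actn1, the alpha-actinin gene of stress fibres (-1.01, adjusted p = 0.0381 in limma). The remaining probe sets of Tpm2 and Actn1 did not pass, with lowest adjusted p-values of 0.0968 and 0.056 in limma. Which stretch or splice form of a transcript each probe set reads is not given in the sources used here. Myh9, by contrast, had a difference between -0.11 and -0.30 on its 4 brighter probe sets, none of them called.

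By mean intensity, the member probe sets had a median of -0.81 between 100 and 1000 (11 of 24 called lower, against 1.7% of all probe sets in that range). Between 1000 and 10000 the median was -0.62 (14 of 32, against 2.25%), and over 10000 it was -0.44 (3 of 22, against 1.09%). Under 100 it was -0.37, with 1 of 8 called against 0.777%. Endings _s_at and _x_at mark probe sets whose probes can match further transcripts. They belong to the probe sets used for Acta2, Cald1, Myh9, Lpp, Srf, Tagln2 and Cnn3, and to the dimmer ones of Tpm2 and Actn1 that passed. The values of all these probe sets are less certain for that reason. For Myl6, an essential light chain gene, the probe set used is dim (539 on day 3 with O(WT)SK), since its other probe sets also name further genes.

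**Figure D3:**
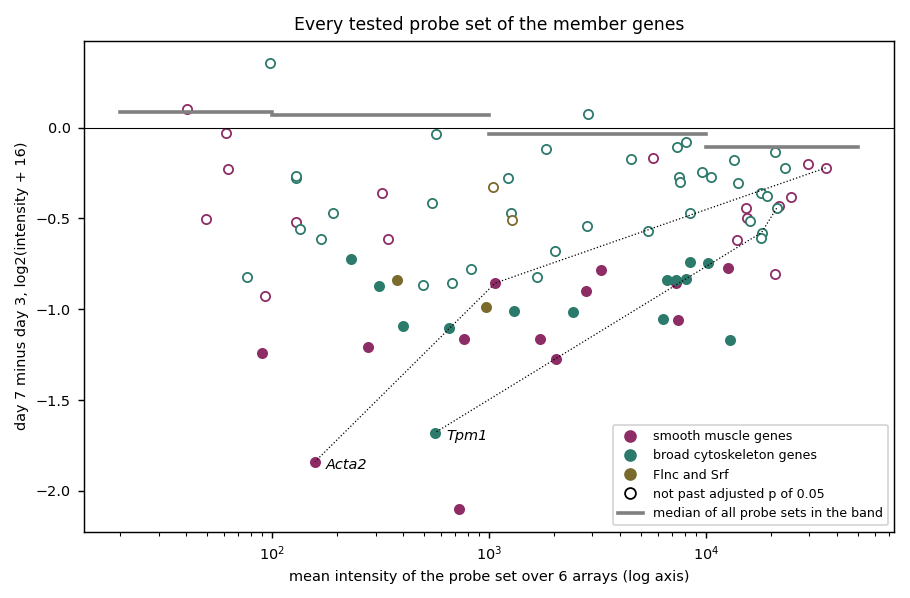
Difference between day 7 and day 3 in log2(intensity + 16) for the 86 tested probe sets of the members, against their mean intensity over 6 arrays on a log axis. Grey lines give the median of all probe sets in each range, and dotted lines join the probe sets of Acta2, from -0.22 at the bright end to -1.84, and of Tpm1.

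The fall was spread over both steps. From day 3 to day 5 the smooth muscle genes had a median of -0.27 and the broad ones -0.18. From day 5 to day 7 the medians were -0.42 and -0.24. Neither step alone gave a call: limma called 0 of the 12622 genes (0%) at either step, while 10 and 16 of the 33 members had an unadjusted p under 0.05, against 16.2% and 13.8% of all genes. With the trended, robust prior limma called 9 members lower over the first step, against 2.37% of all genes, and 8 over the second, against 0.967%.

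The 15 members that fell differed in where their estimates placed the change. Synpo2 had 78.6% of its log2 fall behind it by day 5 and Mylk 63.9%, whereas Cnn1 had 23.3% and Myh11 24.0%. Vcl and Pdlim5 had each reached 60.4%, Srf 59.0%, Lmod1 56.1%, Lpp 54.6% and Tagln2 54.5%. Csrp1, Actg2, Csrp2, Myl9 and Smtn stood between 46.5% and 30.9%. A contrast of the first step with the second, added after the values were seen, called 0 genes (0%) in limma. The unadjusted p was 0.0354 for Synpo2 and 0.0317 for Cnn1 and above 0.05 for the other 31 members, so an early and a late group are not separated by this test.

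**Figure D4:**
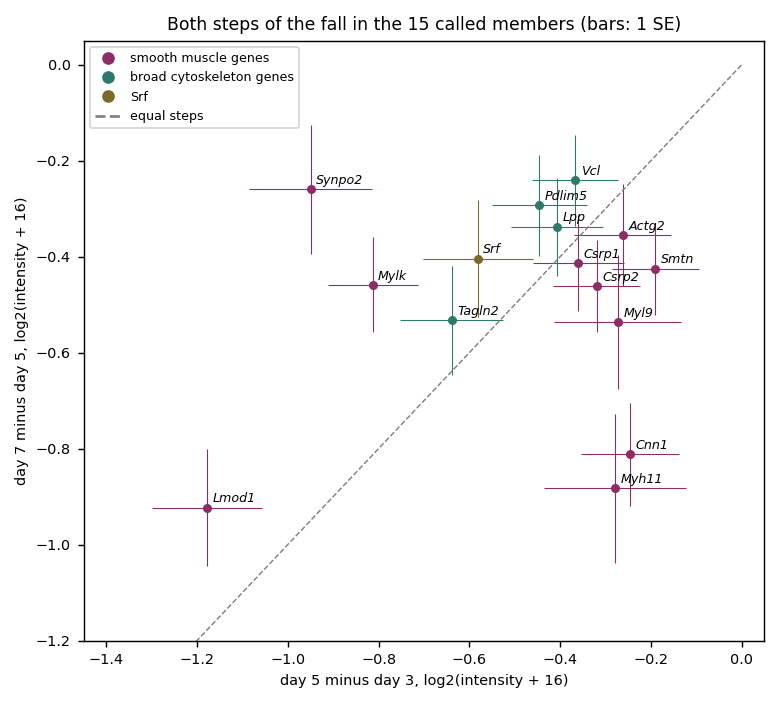
Change from day 5 to day 7 against change from day 3 to day 5, in log2(intensity + 16), for the 15 genes that fell, with bars of 1 SE. Genes above the dashed line of equal steps, such as Synpo2 and Mylk, changed more before day 5, and those below it, such as Cnn1 and Myh11, more after it.

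Between the OCT4 versions, compared within days, no member was called. In limma 0 genes passed (0%), against 1180 (9.35%) at an unadjusted p under 0.05, and the lowest adjusted p among the members was 0.485. Of the members, Lmod1 alone had an unadjusted p under 0.05 (difference -0.31, SE 0.099). With the trended, robust prior 0 members were called. The fitted differences ran from that of Lmod1 to 0.12 for Flna, which encodes filamin A, with SEs from 0.076 to 0.128. They were negative for 25 members, for 6714 of the 12622 genes tested and for 893 of the 1263 genes in the brightest 10%. On single days O(5R)SK lay below O(WT)SK for 20 members on day 3, 26 on day 5 and 23 on day 7, against 49.9%, 52.8% and 52.4% of all genes. Among the 1263 genes in the brightest 10% it lay below for 530, 855 and 924 on these days. No member differed 2-fold on any day.

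The distance was greatest on day 7. There the smooth muscle genes had a median of -0.21 and the broad ones -0.13, after -0.06 and -0.01 on day 3 and -0.09 and -0.08 on day 5. The brightest 10% of all genes moved alike, from 0.02 on day 3 through -0.05 to -0.14 on day 7. Bright signals were lowest on the O(5R)SK day 7 array. Its top intensity was 34285, where the other arrays reached 40353 to 47606, and the Gapdh control at the 3′ end gave 17665 there and 21995 to 23810 elsewhere. The part of this in the members' values was not tested. After quantile normalization, which gives all arrays the same distribution, the fitted medians between the combinations, signed as before, were -0.05 for the smooth muscle and 0.00 for the broad genes, in place of -0.12 and -0.06. The slopes over the days did not differ in any call either (0% of genes). The lowest adjusted p among members was 0.658, for Acta2, whose change with O(5R)SK was 0.52 below that with O(WT)SK (unadjusted p = 0.0484 in limma).

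**Figure D5:**
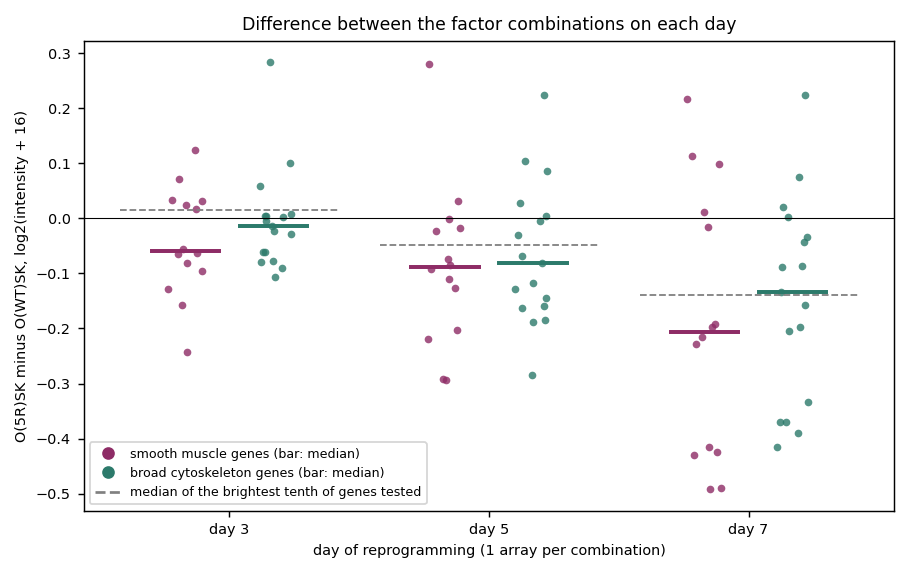
O(5R)SK minus O(WT)SK on each day, in log2(intensity + 16), for the smooth muscle and the broad genes, 1 array per combination and day. Bars give group medians and dashed lines the median of the brightest 10% of genes tested, which goes from 0.02 on day 3 to -0.14 on day 7 as the bars also move down.

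Other genes of the pathway were read from lists drawn up for the biology of stress fibres, with earlier results of these data known. Of 25 cofactors and further targets of SRF and the MRTFs 24 were tested, and 10 fell and 0 rose, with a median of -0.36. The greatest falls were those of Nexn (-1.68), which encodes an actin-binding protein of muscle, the skeletal actin gene Acta1 (-1.65), Ankrd1 (-1.53), a gene switched on in strained muscle, and Itga5 (-1.51), which encodes the fibronectin receptor subunit alpha 5 integrin. Nexn read 2424, 1297 and 734 with O(WT)SK, against 2367, 1230 and 735 with O(5R)SK, so the combinations ran together. The cofactor genes themselves gave no call: the difference was -0.35 for Mrtfa (adjusted p = 0.118 in limma) and 0.17 for Mrtfb (adjusted p = 0.32 in limma). Myocd, the myocardin gene of smooth muscle, lay below the limit for testing.

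Of 22 regulators of the myosin light chain and of actin turnover 21 were tested, and 2 fell and 0 rose, with a median of -0.12. Those 2 were Ppp1r14a (-1.39), which encodes an inhibitor of myosin phosphatase, and the small GTPase gene Rhob (-0.80). Limk2 (0.65) and Cfl2 (-0.50), which act on actin turnover, had the next largest differences and did not pass. Of 24 further focal adhesion and stress fibre genes 20 were tested, and 5 fell and 1 rose, with a median of -0.27. Ldb3 (-1.03), Fermt2 (-0.94), which encodes kindlin-2, and the integrin-linked kinase gene Ilk (-0.90) fell, while Synpo (0.85), a synaptopodin gene related to Synpo2, rose. Rock2 and Ptk2 were not analysed here.

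Markers of cell types were read beside these genes, and their part in the members' fall was not tested. Of 12 fibroblast markers 11 were tested, and their median was -0.02, with 2 lower (Thy1 -0.71, Fap -0.48) and 0 higher. Their summed intensity went from 123107 on day 3 to 135392 on day 7 with O(WT)SK and from 117650 to 99223 with O(5R)SK. The brightest markers weigh most in these sums. Vim, the brightest, read 40322 and 44632 on these days with O(WT)SK, against 39446 and 31366 with O(5R)SK. Bright signals as a whole were lowest on the O(5R)SK day 7 array, and the part of that in the sums was not tested. Of 13 markers of vascular smooth muscle and pericytes outside the members 9 were tested, 3 were lower and 2 higher, and their median was 0.04. Among them were Rgs5 (-1.52), Kcnmb1 (-1.41), Mcam (-1.03) and Notch3 (1.34), while Aoc3, Pln, Kcnj8 and Abcc9 lay below the limit for testing. Their summed intensity went from 7351 to 5378 with O(WT)SK and from 6692 to 5155 with O(5R)SK. Of 16 striated muscle markers 9 lay below that limit, among them Myod1, Myog and Pax7, and of the 7 tested 1 fell (Acta1) and 1 rose (Tnnt2, 0.67).

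Markers of other cells also moved. Of 11 macrophage markers 10 were tested and 7 fell, with a median of -1.02. Their summed intensity went from 10564 to 4518 with O(WT)SK and from 10014 to 3803 with O(5R)SK. Of 5 mesothelial markers 4 were tested and 3 rose (Msln 1.49, Upk1b 1.18, Upk3b 0.88), with sums of 4116 and 4239 on day 3 and 11355 and 10639 on day 7. Of 10 epithelial markers 6 were tested, and 2 rose (Cdh1 1.69, Krt8 1.18) and 1 fell (Krt19, -1.38). Their summed intensities lay between 1628 and 2275 on all arrays and mix these opposite courses. From day 3 to day 7 Krt19 went from 1684 to 740 with O(WT)SK and from 1705 to 552 with O(5R)SK. Over the same days Cdh1 went from 102 to 252 and from 133 to 665. Of 7 endothelial markers 3 were tested and 0 were called, and Pecam1, Cdh5, Tie1 and Vwf lay below the limit.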

How the data were processed

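Each probe set has 1 deposited intensity per array, on a linear scale. The submitters' processing notes name affy as the authors' tool, with its version and its summary and background steps not given in the sources used here. On every array the 2% trimmed mean was 500. The number of arrays limits the precision. Of 45101 probe sets 34945 name 1 gene in the platform annotation, 932 several and 9211 none. There were 0 unused columns. Genes were tested where their mean passed the 40th percentile over all probe sets, with limma 3.58.1 in R 4.3.3 (lmFit and eBayes on log2(intensity + 16), Benjamini-Hochberg over all genes tested, threshold 0.05, 2 residual degrees of freedom and a prior of 2.6). For dim genes, folds on this scale come out too small. Slopes came from a fit with day as a number, per 4 days. The fits were tested on simulated data. The members, the lists and the rule for named genes (values of every smooth muscle member, the paralogs, Srf and Flnc, and at most 4 genes of each further list by size of change) were chosen with earlier results of these data known. Mcam, Upk3b, Vim and the marker genes listed as untested were named after their values were seen. So were Mrtfa, Mrtfb, Vcl, Pdlim5, Lpp, Actn4, the genes at the ends of ranges and single probe sets. Alternatives were the pseudocount, the filter, the scaling, averaging all probe sets of a gene, a trended and robust prior and each array left out. Promoter windows are RefSeq's (GRCm38.p6). Python 3.11.15 with pandas 2.3.3 searched motifs, and matplotlib 3.10.9 drew the figures.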

Additional observations from a re-analysis of the deposited data

Results flagged for a closer look

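For Acta2 and Myh9 the change from day 3 to day 7 had opposite signs in the factor combinations, each from 1 array a side. With O(WT)SK it was close to level, and with O(5R)SK it was negative. The O(WT)SK changes were smaller than the SEs of the fit over both combinations, 0.157 for Acta2 and 0.131 for Myh9. The change with O(5R)SK less that with O(WT)SK was -0.516 for Acta2 (0.04 and -0.48) and -0.388 for Myh9 (0.06 and -0.33) on the scale log2(intensity + 16). In the fit of slopes neither difference passed in limma (adjusted p = 0.658 and 0.724), and the opposite signs were not tested otherwise. In both genes it is the O(5R)SK day 7 value that stands low, on the array with the lowest bright end, and the part of that in the difference was not tested. The dimmer probe sets of Acta2 changed by -0.87 and -1.81 with O(WT)SK and by -0.85 and -1.87 with O(5R)SK, the same direction in both.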

How the results depend on the processing

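Combination and day are both terms of the fit, so days are compared within combinations and combinations within days. For day 7 against day 3 limma called 15 of 33 members, against 3.68% of all genes called lower. It called 21 with a pseudocount of 64 (6.15% of all genes), 24 with the stricter filter at the 60th percentile (9.67%) and 27 with the trended, robust prior (10.1%). A common median gave 16 (4.7%), quantile normalization 15 (4.07%), and averaging all probe sets of a gene 18 (2.56%), when Myh11 was lost. Without a filter, where 18193 genes were tested, the count was 0 (0%). In the fit per probe set 16 members had a called probe set, and Actg2, Myl9 and Smtn had none. Leaving out single arrays gave from 0 to 12: 12 without either day 5 array, when Actg2, Smtn and Vcl were lost, and 0 without any day 3 or day 7 array. The share of all genes called lower without either day 5 array was 2.65%. For day 5 against day 3 the main setting gave 0 members. The pseudocount of 64, the stricter filter and the trended prior gave 3, 5 and 9, against 0.776%, 1.74% and 2.37% of all genes called lower. For day 7 against day 5 the main setting gave 0, and the same alternatives gave 2, 3 and 8, against 0.182%, 0.456% and 0.967%. A common median moved the median of all genes for day 7 against day 3 from 0.03 to -0.07 and that of the smooth muscle genes to -0.88, or -0.81 relative to it. Over all other settings the smooth muscle median ran from -0.82 to -0.67 and the broad one from -0.55 to -0.36. Directions reversed in these cases, with values on the log2 scale. For day 7 against day 3, Myh10 read 0.004 with the mean of probe sets. With single arrays left out Acta2 ran from -0.451 to 0.007 and Myh9 from -0.294 to 0.027, both turning without O(5R)SK day 7. For O(5R)SK less O(WT)SK, the common median gave -0.024 for Csrp2, -0.024 for Synpo2, -0.029 for Tpm3 and -0.027 for Myh10. Quantile normalization gave -0.022 for Synpo2, 0.057 for Cnn3 and 0.004 for Actn4. The mean of probe sets gave -0.052 for Myh11, 0.073 for Mylk, 0.196 for Tagln2, 0.264 for Cnn3, -0.037 for Tpm3, 0.144 for Zyx, 0.037 for Pdlim7 and 0.001 for Lpp. Leaving out single arrays turned the same difference for some members, with ranges of -0.019 to 0.028 for Csrp2, -0.003 to 0.156 for Myl6, -0.037 to 0.034 for Myh10, -0.051 to 0.004 for Actn4, -0.111 to 0.057 for Srf, -0.064 to 0.197 for Myh11, -0.093 to 0.039 for Tagln2, -0.093 to 0.117 for Synpo2, -0.001 to 0.012 for Tpm3, -0.216 to 0.013 for Zyx and -0.063 to 0.056 for Pdlim7. In all other settings that keep every array the direction of each member's day 7 difference was kept. The causes were not tested.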
